A study of Mus musculus with 2 samples.

Results

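The interleukin 1 family and its decoys were examined in the myeloid cells of a malignant pleural effusion, as 10 genes out of the 27998 listed in the deposited counts: the agonists Il1a and Il1b, the receptor antagonist Il1rn, the decoy receptor Il1r2, the accessory chain Il1rap, Il18 and its binding protein Il18bp, and the processing and sensor genes Casp1, Casp4 and Nlrp3. They were chosen by gene symbol, and each symbol matched 1 row in both libraries. No cut-off on a measured value was used, but the list was made with earlier results of these data known. Both libraries belong to the same group, mice with a malignant pleural effusion 10 days after 150000 LLC cells (from a Lewis lung carcinoma of the mouse) were put into the pleural cavity in 100 µl, and no tumour-free sample is compared. Live CD45+ CD11b+ cells (leukocytes bearing a myeloid integrin) were sorted from the fluid and sequenced with a 10x Genomics 3' end kit, so that a level is a count of UMIs, molecules counted once. The labels as read here name no strain, age or number of animals per library. The p-values measure only how differences between classes varied between these 2 libraries, in a joint fit of 6 classes. That spread may be technical, and the overall shift between the libraries is taken out of it. The question put to the data was which effusion cells carried the RNA of agonists, antagonist, decoy receptor and processing enzymes.

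Interleukin 1 alpha and beta act through a receptor made of a ligand-binding chain, Il1r1, and the shared accessory chain encoded by Il1rap. The antagonist encoded by Il1rn occupies the receptor without signalling, and the decoy receptor encoded by Il1r2 binds interleukin 1 beta but lacks the signalling domain. Pro-interleukin 1 beta and pro-interleukin 18 are cut by caspase-1, which is activated in inflammasomes such as that of Nlrp3. Mouse caspase-4, also called caspase-11, senses cytosolic lipopolysaccharide, and the protein of Il18bp neutralises interleukin 18. RNA levels do not show cleavage or secretion, and neither was measured.

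All 10 are protein-coding genes in the GENCODE M21 annotation of mm10. Il1a (ENSMUSG00000027399, chr2:129299610-129309972) and Il1b (ENSMUSG00000027398, chr2:129364570-129371139) lie near each other on the minus strand of chromosome 2, and Il1rn (ENSMUSG00000026981, chr2:24336853-24351494) lies on its plus strand. Il1r2 (ENSMUSG00000026073) spans chr1:40074079-40125231, Il1rap (ENSMUSG00000022514) chr16:26581704-26730117 and Nlrp3 (ENSMUSG00000032691) chr11:59541568-59566956, all on the plus strand. Il18bp (ENSMUSG00000070427) spans chr7:102014885-102018690 on the minus strand. Chromosome 9 holds Casp1 (ENSMUSG00000025888, chr9:5298517-5307265), Casp4 (ENSMUSG00000033538, chr9:5308828-5336783) and Il18 (ENSMUSG00000039217, chr9:50554827-50581840), all on the plus strand. Whether counting used strand is not stated in the sources, so reads of overlapping genes on the other strand could be mixed in. The antisense genes of Il1b (Il1bos) and Il1r2 (Gm16894) had 65 and 70 UMIs against 18519 and 14131 of Il1b and Il1r2. Numa1, which overlaps Il18bp, had 412 against 2226.

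Upstream sequences are shown for the 5 members with the widest difference between neutrophil-like and C1q macrophage-like cells. They come from the RefSeq promoter table (build GRCm38.p6), which held all 10 genes in 14 windows. Of each window the 250 bases before the start were searched, only the longest stretch free of annotated exons is printed, and for Il1rn and Casp4 the window of the first start. Each runs 5′ to 3′ on the gene's own strand, with motif matches in capitals.
Il1b, chr2:129371140-129371389, minus strand: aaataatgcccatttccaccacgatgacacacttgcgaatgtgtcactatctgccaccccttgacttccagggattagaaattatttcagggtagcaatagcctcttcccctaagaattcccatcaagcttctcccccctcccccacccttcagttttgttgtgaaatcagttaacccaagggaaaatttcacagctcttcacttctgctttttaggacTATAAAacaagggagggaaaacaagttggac
Il1rn, chr2:24336610-24336852, plus strand: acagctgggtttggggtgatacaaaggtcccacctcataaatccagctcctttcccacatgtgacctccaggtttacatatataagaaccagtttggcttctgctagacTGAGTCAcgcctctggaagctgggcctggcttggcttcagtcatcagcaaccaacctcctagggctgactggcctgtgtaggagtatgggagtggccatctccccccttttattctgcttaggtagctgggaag
Il1r2, chr1:40085852-40085984, plus strand: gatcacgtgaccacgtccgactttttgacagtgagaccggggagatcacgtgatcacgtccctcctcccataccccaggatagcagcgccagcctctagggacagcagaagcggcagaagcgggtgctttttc
Il1rap, chr16:26581455-26581703, plus strand: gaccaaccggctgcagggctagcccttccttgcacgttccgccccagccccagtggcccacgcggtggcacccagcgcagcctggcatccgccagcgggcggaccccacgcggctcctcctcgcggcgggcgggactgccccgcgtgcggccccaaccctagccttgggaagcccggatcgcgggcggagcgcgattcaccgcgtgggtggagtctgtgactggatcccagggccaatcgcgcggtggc
Casp4, chr9:5308599-5308827, plus strand: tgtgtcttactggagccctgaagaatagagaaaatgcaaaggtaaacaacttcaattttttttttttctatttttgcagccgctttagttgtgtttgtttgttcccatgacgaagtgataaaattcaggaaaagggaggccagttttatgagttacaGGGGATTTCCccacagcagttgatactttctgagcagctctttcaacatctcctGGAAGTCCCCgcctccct
Motifs were searched on both strands as these letters: GGG, any 3 bases and TTCC for NF-kB, TTGCNNAA for C/EBP, TGANTCA for AP-1, GAGGAA for ETS factors, GAAA, any 2 bases and GAAA for interferon response factors and TATAAA for the TATA box. The capitals in Il1b are a TATA box letter match that begins 31 bases before the start; 12.4% of 32851 windows of the same length hold one. The capitals in Il1rn are an AP-1 match 141 bases before the start, found in 6.75% of windows. Another of the 3 Il1rn windows, not printed, held an NF-kB match 51 bases before its start and no AP-1 match. The capitals in Casp4 are 2 NF-kB matches 93 and 39 bases before the start, with 4.65% of windows holding such a match. A further NF-kB match lies 14 bases before the Casp4 start in the part not printed. None of these letters was found in the Il1r2 and Il1rap windows. The Il1r2 window belongs to a start at base 40086093, inside the gene span given above. Here a match is a description of letters, not of binding.

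Library 1 held 1141 barcodes with 11543829 gene UMIs (median 9894) and library 2 held 2908 with 20322996 (median 1954.5); the lowest barcode held 1999 UMIs in the first and 500 in the second, and 4 barcodes occurred in both. Classes were drawn per cell from marker genes that include no member, and are called X-like for that reason. Libraries 1 and 2 held 74 and 1496 neutrophil-like, 84 and 194 monocyte-like, 185 and 40 C1q macrophage-like, 51 and 35 resident cavity macrophage-like and 132 and 29 dendritic-like cells. Another 442 and 712 cells passed both the C1q macrophage and the monocyte marker threshold and are called double-positive. There were 26 and 12 B-like and 2 and 37 T or NK-like cells, although the sort was for CD11b. The remaining cells stayed unnamed. The border of the double-positive class was soft: with all thresholds doubled, 153 and 387 cells stayed in it. The libraries differ in more than number: 759 of 759 cells of library 1 with either kind of RNA carried Y-linked RNA and no Xist, while in library 2 Xist alone was found in 919 of 1024 such cells with more counts of one of its 2 CD45 antibody tags (BC2) and in 332 of 391 of the others (BC3 side). Library 2 was mixed in this respect: on the BC2 and BC3 sides 47 and 55 cells carried Y-linked RNA alone, and 58 and 4 carried both. Of neutrophil-like cells of library 2, 1467 of 1496 lay on the BC3 side. By contrast, 687 of 712 double-positive and 40 of 40 C1q macrophage-like cells lay on the BC2 side. The labels do not explain the tags.

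Il1b, the main secreted agonist, was carried above all by neutrophil-like cells. Its level there was 2479 CPM (the gene's UMIs per 1000000 UMIs of the class) in library 1 and 4912 in library 2, with exact Poisson 95% intervals of 2256 to 2717 and 4821 to 5004 that cover counting error only. Dendritic-like cells followed with 234 and 476, monocyte-like cells with 74.0 and 439, double-positive cells with 61.5 and 231, C1q macrophage-like cells with 53.9 and 146 and resident cavity macrophage-like cells with 17.7 and 99.2. Neutrophil-like cells stood above every other class in both libraries without overlap, and the other 5 classes came in the same order in both libraries, although each of their ranges over the libraries overlapped with that of its neighbour. Means over the libraries were 3695 ± 1720 CPM (SD, n = 2) in neutrophil-like, 355 ± 171 in dendritic-like and 99.7 ± 64.8 in C1q macrophage-like cells. Neutrophil-like cells, with 1.62% and 11.8% of all UMIs of kept cells, held 29.6% and 69.3% of all Il1b UMIs. Il1a, the other agonist, gave 2 UMIs in library 1 and 9 in library 2 over all kept cells and was not tested. Of those 9, 4 lay in resident cavity macrophage-like cells (6.5 CPM, interval 1.77 to 16.7).

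**Figure D1:**
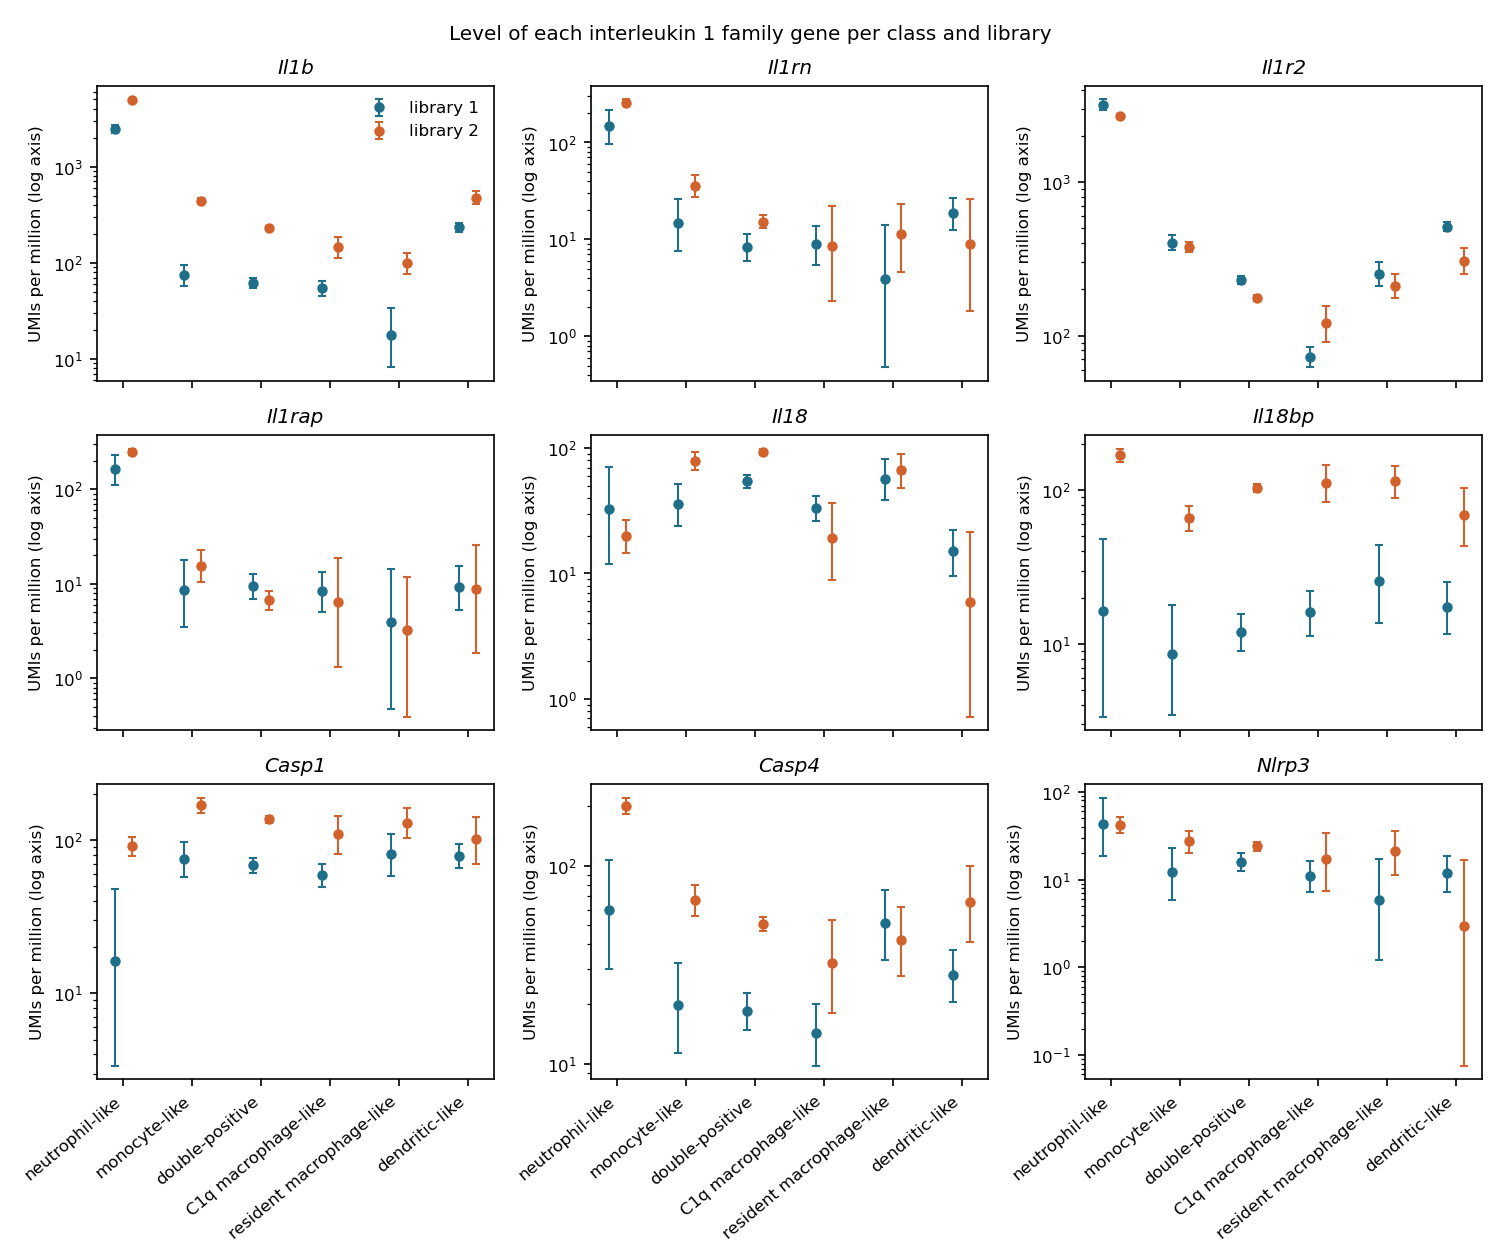
Level of 9 members in 6 classes, in CPM on log axes; points are libraries 1 and 2 and bars exact Poisson 95% intervals (counting error only). Il1b, Il1rn, Il1r2 and Il1rap stand highest in neutrophil-like cells in both libraries (Il1b 2479 and 4912), whereas Il18 is highest on the mean in double-positive cells (54.4 and 93.3).

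Free RNA can give UMIs in droplets of other cells, so the neutrophil marker S100a8 is given beside these levels. Outside neutrophil-like and unnamed cells S100a8 stood at 0.162% to 1.40% of its neutrophil-like level. S100a8 is among the markers that drew the neutrophil-like class, and cells at or above that marker threshold were kept out of the other named classes. These shares are therefore partly set by the threshold and are not an independent measure of free RNA. Scaled by that share, neutrophil-like RNA would give dendritic-like cells 11.4 and 29.7 CPM of Il1b, monocyte-like cells 18.7 and 37.7, double-positive cells 17.8 and 29.0 and C1q macrophage-like cells 14.3 and 12.9, below the levels measured in each. For resident cavity macrophage-like cells it would give 34.8 and 49.9, above the 17.7 measured in library 1 and below the 99.2 in library 2. In library 2 the resident-gated cells that also fell in a resident cluster (cells grouped without the members) had Il1b at 35.7 CPM. Those in other clusters had 318, and in library 1 the values were 15.2 and 20.5. The unnamed cells, with Il1b at 195 and 566 CPM, had the highest S100a8 share, 3.38% and 6.19%. They include cells that passed the neutrophil threshold together with markers of another class.

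Il1rn, the receptor antagonist, followed the agonist into neutrophil-like cells. It reached 147 and 256 CPM there, against 14.8 and 35.7 in monocyte-like, 8.35 and 15.3 in double-positive, 8.91 and 8.56 in C1q macrophage-like, 3.94 and 11.4 in resident cavity macrophage-like and 18.7 and 8.92 in dendritic-like cells. Neutrophil-like cells did not overlap with any other class, and the order of the other 5 differed between the libraries. B-like cells had 0 Il1rn UMIs in either library, which allows up to 28.0 and 61.9 CPM (upper limits of the exact Poisson 95% intervals). Counts are of 3′ ends and were not divided by gene length, so the share of a gene in a pair is compared between classes and not read as a ratio of molecules. Il1rn made up 5.60% and 4.96% of the UMIs of Il1b and Il1rn together in neutrophil-like cells (exact binomial 95% intervals 3.72% to 8.05% and 4.57% to 5.37%). In monocyte-like cells it was 16.7% and 7.53% (8.92% to 27.3% and 5.85% to 9.51%) and in double-positive cells 12.0% and 6.21%. The antagonist's share was thus lower in neutrophil-like than in monocyte-like cells in both libraries, by more than the counting intervals in each. It was not lowest there in every comparison: in library 2 it was 1.84% in dendritic-like (0.381% to 5.28%) and 5.56% in C1q macrophage-like cells (1.53% to 13.6%), both intervals overlapping that of neutrophil-like cells. With n = 2 libraries no exact test over libraries can pass the threshold, and none is given.

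Il1r2, the decoy receptor, was also at its highest in neutrophil-like cells, but they held less of its UMIs than of the agonist's. The shares were 15.9% and 62.3% for Il1r2 against 29.6% and 69.3% for Il1b. In library 2 Il1r2 was not found in more cells than Il1b in each class. It was in 51.8% against 58.7% of double-positive and in 61.3% against 56.7% of monocyte-like cells. Its level was 3181 and 2699 CPM in neutrophil-like, 512 and 306 in dendritic-like and 402 and 377 in monocyte-like cells. It was 252 and 211 in resident cavity macrophage-like, 231 and 175 in double-positive and 72.6 and 120 in C1q macrophage-like cells. C1q macrophage-like cells were the lowest class in both libraries and did not overlap with their neighbours in the order, the double-positive cells; dendritic-like and monocyte-like cells overlapped. The S100a8-scaled neutrophil-like value was 14.7 and 16.3 CPM in dendritic-like and 24.0 and 20.7 in monocyte-like cells, below the levels measured. Among Il1b and Il1r2 UMIs together, Il1r2 took 56.2% and 35.5% in neutrophil-like and 84.5% and 46.2% in monocyte-like cells. Il1r2, like Il1b, was spread unevenly over the cells of a class. The top 10% of cells held 63.3% and 63.1% of the Il1b UMIs of monocyte-like and 74.2% and 57.4% of those of double-positive cells. In resident cavity macrophage-like cells of library 2 they held 68.9% of the Il1b UMIs, less than for Il1r2. An Il1r2 UMI was in 59.5% and 61.3% of monocyte-like, 48.4% and 51.8% of double-positive and 31.4% and 45.7% of resident cavity macrophage-like cells. The top 10% of cells held 58.6% and 48.0% of the Il1r2 UMIs of monocyte-like, 66.0% and 54.0% of double-positive and 86.7% and 80.0% of resident cavity macrophage-like cells, but 26.0% and 33.6% of those of neutrophil-like cells.

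Il1rap, the accessory chain through which the interleukin 1 receptor signals and with which the decoy can also pair, was carried by neutrophil-like cells at 163 and 249 CPM and stayed between 3.25 and 15.6 in the other 5 classes. Its neutrophil-like level stood apart from all of them in both libraries. Il1r1, the ligand-binding signalling receptor, gave 11 UMIs over the 6 classes of both libraries and was too low to test.

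Il18 had another distribution. Its level was 54.4 and 93.3 CPM in double-positive, 57.1 and 66.7 in resident cavity macrophage-like, 35.8 and 79.3 in monocyte-like, 33.4 and 19.3 in C1q macrophage-like, 32.7 and 19.9 in neutrophil-like and 14.997 and 5.94 in dendritic-like cells. Dendritic-like cells were lowest of these classes in both libraries, on 24 and 2 UMIs. Their intervals (9.61 to 22.3 and 0.720 to 21.5) overlapped those of neutrophil-like cells (12.0 to 71.1 and 14.5 to 26.6), so the rank is not firm. The first 3 classes overlapped with each other, and so did C1q macrophage-like and neutrophil-like cells. Resident-gated cells that also fell in a resident cluster had Il18 at 19.0 and 35.7 CPM, and those in other clusters at 98.3 and 174. Double-positive cells held 56.3% and 70.5% of all Il18 UMIs while holding 41.2% and 56.3% of all UMIs.

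Il18bp, the interleukin 18 antagonist, differed more between the libraries than between the classes. In library 1 it was at 8.64 to 25.6 CPM over the 6 classes and in library 2 at 65.9 to 168. Neutrophil-like cells had 16.3 and 168, C1q macrophage-like cells 16.04 and 111 and monocyte-like cells 8.64 and 65.9. The neutrophil-like value of library 1 rests on 3 UMIs (interval 3.37 to 47.8), so the mean of 92.2 ± 107 (SD, n = 2) carries little. Of the UMIs of Il18 and Il18bp together, Il18bp took 18.1% and 52.3% in double-positive (13.9% to 22.8% and 50.2% to 54.5%) and 32.4% and 85.2% in C1q macrophage-like cells (23.9% to 42.0% and 73.8% to 93.0%).

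The processing enzymes split. Casp1, which cuts both pro-cytokines, was at 59.3 to 80.8 CPM in library 1 and 101 to 169 in library 2 in the 5 classes other than neutrophil-like cells. Neutrophil-like cells had 16.3 and 90.9, the lowest value in each library, with 3 and 206 UMIs. That rank depends on scaling. Scaled as in the tests below, their log2 ratio was -1.27 and 0.42 to C1q macrophage-like and -1.66 and -0.23 to monocyte-like cells. Casp4, the lipopolysaccharide sensor, was highest in neutrophil-like cells, at 59.9 and 201 against 14.3 and 32.1 in C1q macrophage-like and 19.7 and 67.0 in monocyte-like cells. Neutrophil-like cells were the highest class in each library, but their range over the libraries overlapped with those of monocyte-like and dendritic-like cells (28.1 and 65.4). Of Casp1 and Casp4 UMIs together, Casp4 took 78.6% and 68.8% in neutrophil-like cells (49.2% to 95.3% and 65.2% to 72.4%) and 19.4% to 39.3% in every other class and library. Nlrp3, the inflammasome sensor, was at 43.6 and 41.9 in neutrophil-like cells and 2.97 to 27.4 in the other 5 classes. These ranges over the libraries did not overlap. The neutrophil-like value of library 1 rests on 8 UMIs, and its interval (18.8 to 85.9) overlaps that of monocyte-like cells there (5.92 to 22.7). Nlrp3 levels in dendritic-like (19 and 1 UMIs) and resident cavity macrophage-like cells (3 and 13) also rest on few counts.

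**Figure D2:**
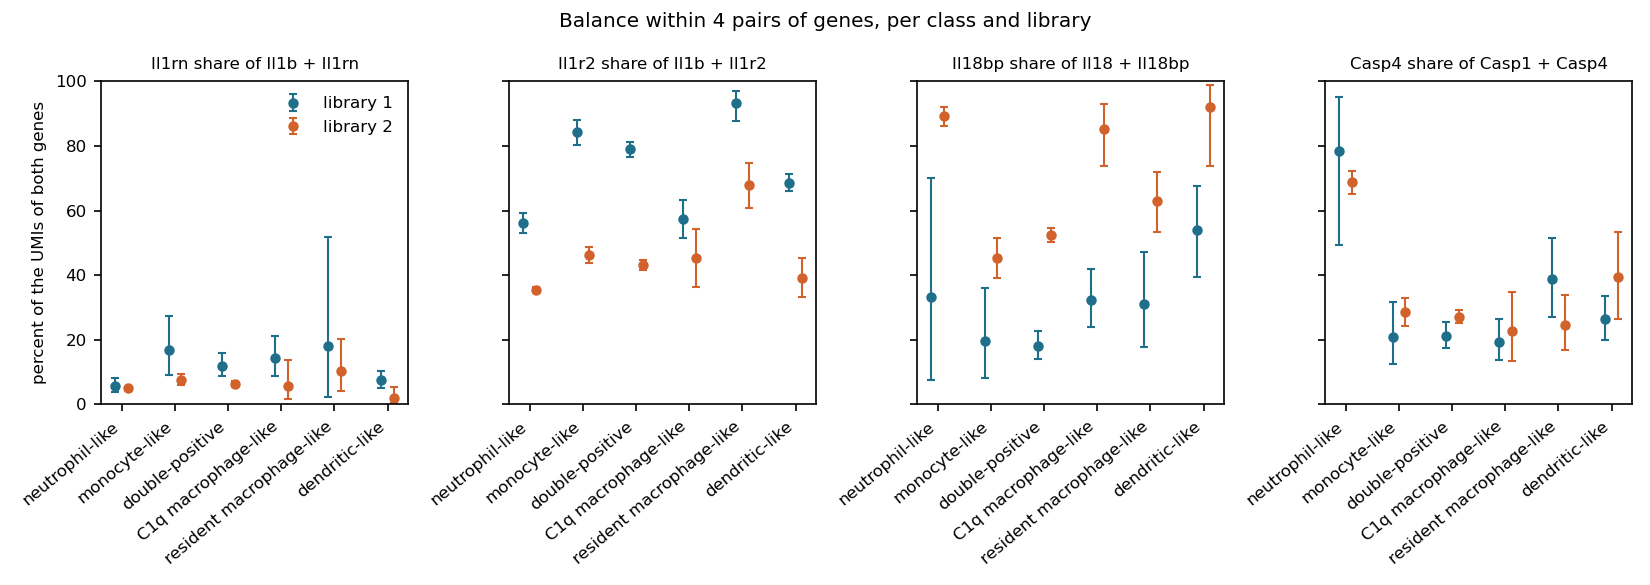
Share of the second gene among the UMIs of both genes of 4 pairs, in percent, per class; points are libraries 1 and 2 and bars exact binomial 95% intervals. Casp4 leads Casp1 in neutrophil-like cells (78.6% and 68.8%) and in no other class, and the Il18bp share is higher in library 2 in all 6 classes.

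Differences between classes were tested on summed UMIs with edgeR's quasi-likelihood test, the library as a block, and Benjamini-Hochberg adjustment over 8597 genes, at 0.05; fold changes are given as log2 ± standard error. Of the 10 members 9 could be tested, Il1a being too low. Against C1q macrophage-like cells, 7 of the 9 were higher in neutrophil-like cells, where 26.6% of all genes tested were higher and 30.2% lower. Il1b (5.82 ± 0.34, edgeR adjusted p = 2.37e-10), Il1r2 (5.56 ± 0.31), Il1rap (5.26 ± 0.36) and Il1rn (4.86 ± 0.36, edgeR adjusted p = 4.07e-09) led, followed by Casp4 (3.15 ± 0.35, edgeR adjusted p = 7.67e-07), Nlrp3 (2.06 ± 0.40) and Il18bp (1.26 ± 0.29, edgeR adjusted p = 0.00131). Casp1 (0.23 ± 0.30, edgeR adjusted p = 0.535) and Il18 (-0.08 ± 0.44, edgeR adjusted p = 0.895) did not pass. Il18 passed as lower in 2 of 11 alternatives, with clusters (-1.28, edgeR adjusted p = 0.0263) and with double-positive cells merged into the C1q macrophage-like class (-1.27, edgeR adjusted p = 0.00455). The cluster setting also counted clusters named double-positive as C1q macrophage-like. In library 2 all 846 cells of that class came from such clusters. The members' median was 3.15 against -0.17 over all genes. The 9 neutrophil markers alone made up 221961 and 140528 CPM of these sums, and scaling by total UMIs in place of TMM (edgeR's default scaling, which trims extreme genes) moved the median of all genes by -0.66 and the share of higher among called genes from 46.8% to 26.5%. The first 6 kept their calls under it. Il18bp (0.58, edgeR adjusted p = 0.0653) lost its call and Casp1 (-0.42, edgeR adjusted p = 0.168) changed sign, each by about the shift of all genes, so neither moved relative to it.

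Against monocyte-like cells, neutrophil-like cells had 7 of the 9 members higher and 1 lower, where 25.6% of all genes were higher and 27.1% lower. Il1b (4.64 ± 0.32, edgeR adjusted p = 2.46e-09), Il1rap (4.63 ± 0.31), Il1rn (3.54 ± 0.30) and Il1r2 (3.42 ± 0.27) were higher, as were Casp4 (2.23 ± 0.31), Il18bp (1.98 ± 0.29) and Nlrp3 (1.46 ± 0.35, edgeR adjusted p = 0.00167). Il18 was lower (-0.98 ± 0.39, edgeR adjusted p = 0.0401), but its ratio was 0.29 in library 1 and -1.32 in library 2, so that direction rests on library 2. Casp1 did not pass (-0.32 ± 0.28, edgeR adjusted p = 0.355) and passed as lower with total UMI scaling (-0.93, edgeR adjusted p = 0.00344), which moved the median of all genes by -0.62 and the higher share of called genes from 48.6% to 25.8%. Nearly all neutrophil-like cells of library 2 lay on the BC3 side of the tags. The 29 on the BC2 side carried Il1b at 1236, Il1r2 at 804 and Il1rn at 46.4 CPM against 5134, 2814 and 269 for the 1467 on the BC3 side, with neutrophil marker UMIs of 556 and 1457 per 10000. With library 2 limited to the BC2 side, 5 and 4 members remained called against C1q macrophage-like and monocyte-like cells. They were Il1b, Il1rn, Il1r2 and Il1rap in both and Casp4 in the first. The share of all genes called in that fit is not given, so a loss particular to the members cannot be told from a general one.

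Monocyte-like cells differed from C1q macrophage-like cells in 2 members, both higher, where 2.8% of all genes were higher and 2.99% lower. Il1r2 was higher (2.15 ± 0.28, edgeR adjusted p = 7.98e-05), with 2.52 and 1.67 in libraries 1 and 2. That call was lost with clusters in place of the marker thresholds, where the reference includes double-positive clusters (1.07, edgeR adjusted p = 0.395). Il1b was higher (1.18 ± 0.31, edgeR adjusted p = 0.0276; 0.51 and 1.61), and it kept its call in 5 of 11 alternatives, losing it among others without the block (edgeR adjusted p = 0.655). Dendritic-like cells differed in 3 members, all higher, where 11.4% of genes were higher and 9.67% lower: Il1r2 (2.33 ± 0.29, edgeR adjusted p = 9.18e-06; 3.03 and 1.35), Il1b (2.08 ± 0.31, edgeR adjusted p = 6.78e-05; 2.33 and 1.71) and Casp4 (1.13 ± 0.40, edgeR adjusted p = 0.0495). With total UMI scaling the median of all genes moved by -0.16 and the higher share of called genes from 54.0% to 41.2%. Casp4 kept its call in 2 of 9 alternatives. Il1b lost it without the block (edgeR adjusted p = 0.253), and Il1r2 with clusters and their wider reference (1.29, edgeR adjusted p = 0.0556). Il18 did not pass as lower there (-0.9995 ± 0.46, edgeR adjusted p = 0.134), but passed in 3 of 9 alternatives (edgeR adjusted p from 0.000465 to 0.0395).

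Resident cavity macrophage-like cells differed from C1q macrophage-like cells in Il1r2 alone of the 9 members (1.35 ± 0.29, edgeR adjusted p = 0.00673), where 4.06% of genes were higher and 1.73% lower. That result depended on how the classes were drawn, and Il1r2 lost its call in 5 of 11 alternatives. In library 1, the 27 resident-gated cells that also clustered as resident held Il1r2 at 22.8 CPM (interval 8.35 to 49.5) and the 24 in other clusters at 500 (415 to 597). In library 2 the values were 126 in 22 cells and 506 in 13. With clusters in place of the gate the difference turned to -1.13 (edgeR adjusted p = 0.188). That setting changed the reference too, since double-positive clusters counted as C1q macrophage-like. Il1b was lower without passing (-0.88 ± 0.37, edgeR adjusted p = 0.216) and passed as lower in 4 of 11 alternatives.

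**Figure D3:**
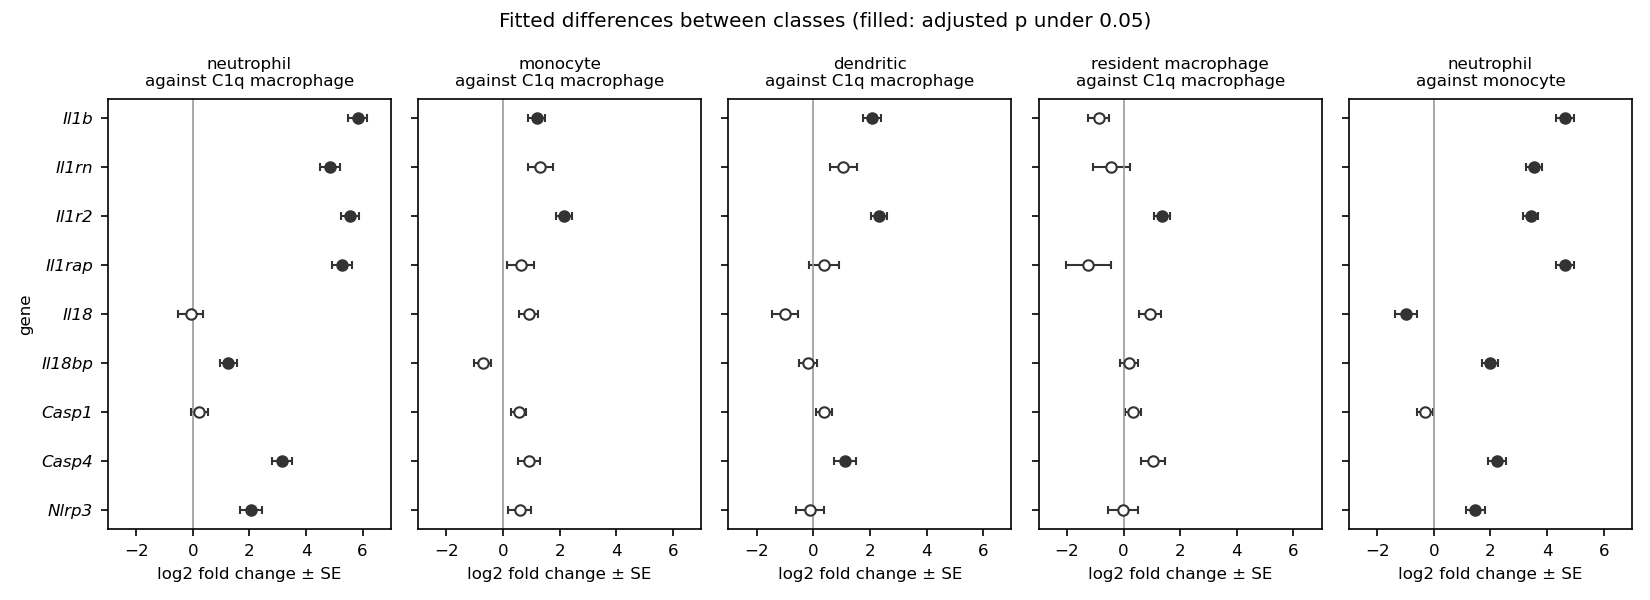
Fitted log2 fold change (± standard error) of 9 members in 5 comparisons of classes; filled points have an edgeR adjusted p under 0.05, and positive values are higher in the class named first. Neutrophil-like cells stand apart, with 7 members higher in both of their comparisons.

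Some members differed between the libraries within every class. Il1b was higher in library 2 in 6 of 6 classes, by 1.98 (1.80 to 2.18, counting error only) in neutrophil-like to 5.93 (4.56 to 7.84) in monocyte-like cells. Il18bp was higher in 6 of 6, by 3.91 in dendritic-like to 10.3 in neutrophil-like cells, with every lower limit above 1. Casp1 was higher in 6 of 6 classes (5 with a lower limit above 1) and Casp4 in 5 of 6. Il1r2 was higher in 1 of 6, with ratios of 0.598 to 1.65. Gbp2, an interferon-inducible guanylate-binding protein in the inflammasome list below, moved the same way, from 17.8 to 565 CPM in C1q macrophage-like and from 46.9 to 1045 in monocyte-like cells. Library, sex of the cells, depth and tag labelling cannot be told apart here, although library 2 also held some cells with Y-linked RNA and no Xist. No test of libraries is possible with 1 of each kind.

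**Figure D4:**
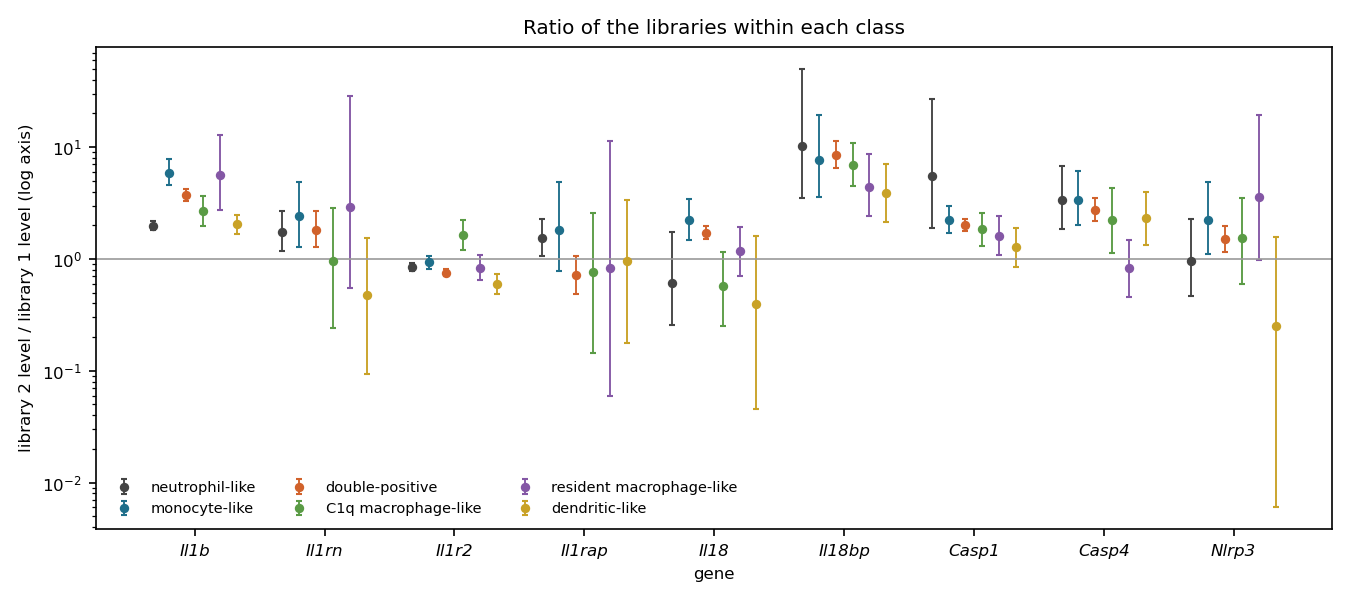
Level in library 2 divided by that in library 1 within each of 6 classes, for 9 members, on a log axis; bars are 95% intervals from the UMI counts (counting error only). Il18bp and Il1b lie above 1 in all 6 classes, and Il1r2 lies between 0.598 and 1.65.

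Detection per cell gave the same picture for the neutrophil-like class. Because depth differed (medians of 2163.5 and 1312.5 UMIs in neutrophil-like against 10130 and 11921.5 in double-positive cells), every cell was thinned to 1000 UMIs, which left out 342 neutrophil-like and 20 double-positive cells of library 2. Il1b was then found in 64.9% (48 of 74, interval 52.9% to 75.6%) and 88.0% (1016 of 1154, 86.0% to 89.9%) of neutrophil-like cells, and in 5.43% and 15.3% of double-positive cells. Unthinned, the shares were 82.4% and 90.5% against 26.9% and 58.7%. B-like cells, which should lack Il1b, had a UMI in 7.69% and 8.33% unthinned (2 of 26 and 1 of 12, median depths 5488 and 5265.5). Il1r2 was in 81.1% and 82.2% of thinned neutrophil-like cells and in 15.6% and 15.6% of double-positive cells. Il1rn was in 13.5% and 20.7%, and Il1rap in 17.6% and 19.4%, of thinned neutrophil-like cells. These shares depend on the depth: thinned to 500 UMIs they were 5.41% and 12.1% for Il1rn and 5.41% and 12.0% for Il1rap.

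Most thinned neutrophil-like cells with Il1b also held its decoy receptor. In library 2 Il1r2 was in 83.2% of 1016 cells with Il1b (80.7% to 85.4%) and in 75.4% of 138 cells without (67.3% to 82.3%). In library 1 it was in 81.3% of 48 cells with Il1b and in 80.8% of 26 without. In library 2 Il1rn was in 21.1% of cells with Il1b (18.6% to 23.7%) and in 18.1% of those without, and Casp1 in 7.48% and 10.9%. Cells differ in what 1 droplet captured, so these shares are descriptions. The 7 neutrophil-like clusters of library 2, drawn without the members, ranged from 4332 to 8390 CPM of Il1b, and from 2159 to 3753 of Il1r2; cluster 4, with 251 cells, was highest in both.

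Dendritic-like cells held an uncommon subset with the antagonist. The cells with at least 5 UMIs of Ccr7 or Fscn1, genes of migratory dendritic cells, numbered 8 and 6. In library 1 they carried Il1rn at 276 CPM (interval 171 to 422), Il1b at 775 and Il1r2 at 39.4, against 5.90, 207 and 535 in the other 124. In library 2 the 6 cells carried Il1rn at 24.0 (0.609 to 134), Il1b at 769 and Il1r2 at 96.2, against 6.78, 434 and 336 in the other 23. Il1b was thus higher and Il1r2 lower in the Ccr7 or Fscn1 cells in both libraries. Of their Il1rn UMIs library 2 held 1, so that the Il1rn difference rests on library 1.

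The other genes of the pathway are given from 6 lists of receptors, cytokines, signalling, inflammasome, priming and neutrophil protease genes. Of 6 other cytokines of the family, 5 (Il33, Il1f5, Il1f6, Il1f8, Il1f10) had 0 UMIs in the 6 classes. Il1f9, the interleukin 36 gamma agonist, was at 98.1 and 217 CPM in neutrophil-like cells and at most 9.76 in any other class. It was higher in neutrophil-like than in monocyte-like cells (6.85 ± 0.43, edgeR adjusted p = 7.10e-10) and than in C1q macrophage-like cells, which held 0 and 1 UMIs (edgeR adjusted p = 1.56e-09), and passed in no other comparison. Of the 6 receptors and regulators 2 could be tested. Il18rap, the accessory chain of the interleukin 18 receptor, was higher than in C1q macrophage-like cells in neutrophil-like (5.28 ± 0.34), dendritic-like (2.68 ± 0.40) and monocyte-like cells (1.66 ± 0.43). Sigirr, an inhibitory receptor of the family, was higher in dendritic-like cells (60 and 11 UMIs against 2 and 3; 4.30 ± 0.71, edgeR adjusted p = 0.00022). The binding chain Il18r1 gave 33 UMIs in all.

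Among 15 tested inflammasome and pyroptosis genes, 5 were higher and 3 lower in neutrophil-like than in C1q macrophage-like cells (list median 0.44, all genes -0.17), where 26.6% of all genes were higher and 30.2% lower, so the count is near the background. Higher were Gbp5 (3.44), Mefv (3.57), Gbp2 (2.85), Txnip (3.05) and Gsdmd (0.66 ± 0.26, edgeR adjusted p = 0.0381), which encodes the pore-forming gasdermin D and stood at 0.03 with total UMI scaling. Lower were the adaptor gene Pycard (-1.63 ± 0.24, edgeR adjusted p = 1.65e-05), the ATP receptor gene P2rx7 (0 and 2 UMIs in neutrophil-like, 37 and 5 in C1q macrophage-like cells) and the channel gene Panx1. Panx1 had 0 UMIs in neutrophil-like cells of either library, where 3 UMIs would be 16.3 and 1.32 CPM. It stood at 5.79 and 6.42 CPM in C1q macrophage-like cells. Pycard, which joins Nlrp3 to caspase-1, had 125 and 208 CPM in neutrophil-like and 890 and 926 in monocyte-like cells. Against monocyte-like cells 6 were higher and 2 lower (25.6% and 27.1% of all genes). Monocyte-like cells had 2 higher and 1 lower than C1q macrophage-like cells (2.8% and 2.99% of all genes), dendritic-like cells 2 and 2 (11.4% and 9.67%), and resident cavity macrophage-like cells 1 higher (Pycard, 0.89 ± 0.22; 4.06%).

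All 8 priming genes, which sense microbial products or carry and limit NF-kB signalling, were higher in neutrophil-like than in C1q macrophage-like cells (list median 1.77; 26.6% of all genes were higher), among them Nfkbiz (3.05 ± 0.25), Tlr2 (2.44) and Cd14 (2.06). Against monocyte-like cells 7 of 8 were higher (25.6% of all genes). With total UMI scaling the smallest of these differences were 0.46 (Nfkb1), 0.50 (Rela) and 0.61 (Tlr4) against C1q macrophage-like and 0.18 (Nfkb1) against monocyte-like cells. In dendritic-like cells 1 was higher (Nfkb1, 1.88) and 3 lower (Cd14 -2.72, Tlr4 -2.25, Nfkbia -0.92); monocyte-like cells had 1 higher (Tlr2, 1.18). Of 10 receptor signalling genes, 5 were higher in neutrophil-like than in C1q macrophage-like cells (Irak2 2.10, Tab2 1.43, Irak3 1.18, Myd88 1.03, Irak4 1.02; 26.6% of all genes were higher), and 4 were higher against monocyte-like cells and 1, Myd88, in dendritic-like cells (0.96). With total UMI scaling Irak3, Myd88 and Irak4 stood at 0.53, 0.42 and 0.39 against C1q macrophage-like cells, and Irak2, Irak3 and Irak4 at 0.41, 0.23 and 0.20 against monocyte-like cells. Of the 3 neutrophil serine proteases, which can cut pro-interleukin 1 beta outside the inflammasome, only Prtn3 could be tested. It was not a neutrophil-like gene here: resident cavity macrophage-like cells carried it at 845 and 919 CPM and neutrophil-like cells at 27.2 and 54.7, and it was higher in the former than in C1q macrophage-like cells (3.52 ± 0.28, edgeR adjusted p = 9.86e-08).

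The genes most like each member over 15 class by library values were named as a description, by Pearson's r of log2(CPM + 10) among 6907 genes; the values share libraries, depth and the contrast of neutrophil-like with other cells. Il1rap was closest to Arg2 (0.98), Gm17619 (0.98) and Cxcr2 (0.98), the last a marker that helped define neutrophil-like cells. Il1rn was closest to Il1rap itself (0.97) and Junb (0.96), Il1b to Msn (0.97), Ier5 (0.96) and Mxd1 (0.93), and Il1r2 to Trem1 (0.97), Dfna5 (0.96) and Gpsm3 (0.95). Nlrp3 was closest to Tgm1 (0.96), Nlrx1 (0.92) and Zcchc6 (0.92), and Casp4 to Tax1bp1 (0.93), Egr1 (0.92) and Mafk (0.91). Il18bp was closest to Dclre1c (0.91), Ripk1 (0.89) and Irf7 (0.89), Casp1 to Bst2 (0.90), Icam1 (0.90) and Aldh16a1 (0.89), and Il18 to Mark4 (0.91), Dhx34 (0.89) and Slc26a2 (0.89).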

How the data were processed

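The authors deposited UMI counts per gene and cell barcode for 2 libraries; the submitters' processing notes name Cell Ranger 3.0.1 and mm10. Barcodes with under 300 genes or over 10% mitochondrial UMIs (25 and 61) and simulated-neighbour doublets (10 and 65) were removed, leaving 1106 and 2782 cells. Cells were classed by UMIs of marker lists per 10000 (neutrophil 100, C1q macrophage 30, monocyte 40, resident 30, dendritic 5 with at least 3 UMIs, B 20, T or NK 10). Antibody tags were not counted as genes. UMIs were summed per library and class where both libraries had 20 cells or more, and the 6 classes were fitted together with edgeR 4.0.16 in R 4.3.3 (TMM, filterByExpr, quasi-likelihood test, library block, Benjamini-Hochberg over all genes). The fit was tested on simulated data. A standard error is the absolute log2 fold change over the root of F. Single-library ratios use TMM factors and 0.5 added UMIs. Alternatives were RLE scaling, DESeq2 1.42.0, no filter, no block, leidenalg 0.10.2 clusters, doubled gates, the BC2 side, no doublet or cell filter, each library alone and, chosen after seeing the data, merging double-positive cells and total UMI scaling. In the cluster setting, clusters named double-positive counted as C1q macrophage-like. Named besides the members were the 3 genes most like each member (1 is not reported here) with at least 100 UMIs, among genes with a mean of at least 10 CPM, and called genes of the pathway lists. Members, lists and markers were chosen with earlier results of these data known.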

Additional observations from a re-analysis of the deposited data

How the results depend on the processing

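The counts of members called kept within 1.5 times of the main count under every alternative that could be fitted for neutrophil-like against C1q macrophage-like cells (5 to 8 against 7). Neutrophil-like against monocyte-like cells had 8 members called, and 4 with library 2 limited to the BC2 side. For the alternatives the shares of all genes called are not given, so these counts show no loss or gain particular to the members. Monocyte-like against C1q macrophage-like cells had 2; DESeq2, no replicate block, clusters, the BC2 side, doublets kept and merging double-positive cells each left 1, and no filter on low counts gave 4. Dendritic-like against C1q macrophage-like cells had 3, and 1 with no replicate block; doubled gates and the BC2 side were not run there, with under 20 cells in library 2. Resident cavity macrophage-like against C1q macrophage-like cells had 1, 0 with no replicate block and 0 on the BC2 side (edgeR; 4 of 9 at an unadjusted p under 0.05 in the main test and 1 by DESeq2), and 2 with no filter. The count of 1 does not mean the same member: Il1r2 was called in 6 of 11 alternatives and Il1b in 4, and with clusters, doubled gates or merged double-positive cells the member called was Il1b. Of the member results called in the main test, these changed sign: Il1r2 in resident cavity macrophage-like cells was -1.13 with clusters, and Il18 in neutrophil-like against monocyte-like cells was 0.29 without library 2 and -1.32 without library 1. Values that were not called also crossed 0, among them Casp1 (-0.42 to 0.30) and Il18 (-1.28 to 0.36) in neutrophil-like, Il18 in monocyte-like (-0.20 to 1.18) and Il18 (-1.36 to 1.16) and Il1rap (-1.77 to 0.32) in resident cavity macrophage-like against C1q macrophage-like cells. Levels moved by more than 1 SD in 12 of 50 cases with clusters and 9 of 50 with doubled gates, and thinned shares in 31 of 60 at 500 UMIs. The causes were not tested. DESeq2-style scaling moved the median of all genes by -0.11 in neutrophil-like against C1q macrophage-like cells and changed no member's call. Without the replicate block 7 of 45 member results lost their call, among them Il18bp in both neutrophil-like comparisons (adjusted p = 0.337 and 0.216 with edgeR). Il1b, Il1rn, Il1r2 and Il1rap kept their calls in both neutrophil-like comparisons in 11 of 11 alternatives. Depth limits Il1a, Il1r1 and, in library 1, the neutrophil-like Casp1 and Il18bp values of 3 UMIs each.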
